A study of Drosophila melanogaster with 9 samples.

Results

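The 10 genes described here belong to the septate junctions that seal the blood-brain barrier of the fly, and were followed across 3 genotypes of Drosophila melanogaster: Gli, moody, Nrx-IV, Cont, Nrg, Lac, sinu, kune, vari and cora. The members were chosen by gene symbol, with earlier results of these data known, and their 37 RefSeq transcripts were summed per gene. They are 10 of the 15413 genes and unmatched transcripts that the count table gives, and all 10 passed the filter on low counts. RNA was sequenced from adult flies with Ion Torrent chemistry to see which transcripts differ when Dube3a, the fly homologue of the ubiquitin ligase UBE3A (annotated as Ube3a), is overexpressed in glia or in neurons. The glial line (3 libraries) carried UAS-Dube3a and repo-GAL4, the neuronal line (3 libraries) carried UAS-Dube3a and elav-GAL4 with the driver named C155 in the labels, and the control (3 libraries) carried UAS-Dube3a with no driver. All 3 genotypes thus held the transgene, none held a driver alone, and repo-GAL4 is active in nearly all glia rather than in the barrier glia only. Flies were kept at 25 degrees and were 3 to 5 days old, and each RNA came from a pool of 15 to 25 heads by the design text, or from dissected brain by the labels. Whether the 3 libraries of a genotype came from separate crosses is not stated, so p-values measure the spread between these libraries.

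The brain of an insect has no blood vessels lined by tight junctions. Hemolymph is instead kept out by a sheath of surface glia, in which the subperineurial glia join to each other by septate junctions, ladder-like contacts that also seal epidermis, trachea, salivary gland and hindgut. A core complex of Nrx-IV, Cont and Nrg links neighbouring membranes and is tied to the cytoskeleton by cora and vari, claudin-like proteins and the immunoglobulin protein Lac are needed for the septa to form, Gli holds the corners where 3 cells meet, and the receptor Moody signals through heterotrimeric G proteins to keep the junction belts of the barrier glia continuous. Because these genes are shared with other epithelia, and because RNA was taken from whole tissue, fewer cells of a type and less RNA per cell cannot be told apart in any value below.

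Counts summed to between 35550949 and 60322417 per library. Levels below are CPM, counts per 1000000 of a library's total over the genes that passed the filter, with that total scaled by TMM. Ube3a was 209 ± 17.5 CPM in the glial line, 70.4 ± 7.95 CPM in the neuronal line and 34.6 ± 4.58 CPM in the control (mean ± SD, n = 3 each), with all 3 libraries of each driver line above all 3 of the control. The eye opsin ninaE averaged 35388 CPM in the glial line, 32024 CPM in the neuronal line and 35801 CPM in the control, so RNA of the eye was in every group. Transcripts of gut enzymes differed between libraries of 1 genotype: the summed level of 27 gut markers ran between 2627 and 58808 CPM in the glial libraries, between 10461 and 60412 CPM in the neuronal libraries and between 2558 and 61805 CPM in the control libraries. A log2 fold change is given ± its standard error from edgeR's quasi-likelihood test on all 9 libraries. A change is called at a Benjamini-Hochberg adjusted p under 0.05 over 11430 genes.

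Gli and moody were the members with the greatest difference between genotypes. Gli encodes gliotactin, a cholinesterase-like transmembrane protein of the tricellular junction. Gli stood at 58.0, 54.2 and 57.3 CPM in glial libraries 1, 2 and 3, at 30.01, 32.3 and 34.3 CPM in the neuronal libraries and at 29.3, 32.8 and 28.3 CPM in the control libraries. The 3 glial libraries lay close together and far above the other 6, and neuronal and control libraries overlapped. Gli rose 1.87-fold in the glial line against the control (log2 fold change 0.91 ± 0.10, adjusted p = 0.0021, 95% interval 0.67 to 1.14). It was 1.76-fold higher in the glial than in the neuronal line (0.81 ± 0.10, adjusted p = 0.0039). Neuronal against control, the value was 0.10 ± 0.10 (adjusted p = 0.75), with an interval of -0.14 to 0.33. The call in the glial line passed in 18 of 19 alternative settings, including each fit that left out 1 library. Its log2 fold change ran between 0.81 and 1.01 over all 19.

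The gene moody encodes a G protein coupled receptor of the barrier glia. In glial libraries 1, 2 and 3 moody measured 146, 264 and 242 CPM. The neuronal libraries held 83.4, 124 and 97.0 CPM of moody, and the control libraries held 109, 114.7 and 88.1 CPM. Every glial library was above every other library, but glial library 1 lay much nearer to the control than glial libraries 2 and 3 did. moody rose 2.09-fold in the glial line against the control (1.06 ± 0.24, adjusted p = 0.040, interval 0.53 to 1.60) and was 2.15-fold higher in the glial than in the neuronal line (1.10 ± 0.24, adjusted p = 0.039, lost in 10 of 19 settings at adjusted p = 0.061 to 0.39). Its neuronal value against the control was -0.04 ± 0.24 (adjusted p = 0.96, interval -0.57 to 0.49). Over 19 settings the log2 fold change of moody in the glial line against the control stayed between 0.88 and 1.54. The glial call against the control was lost in 12 of 19 settings, at adjusted p = 0.053 to 0.998. Leaving out glial library 2, glial library 3, any 1 control library, neuronal library 1 or neuronal library 3 ended it (adjusted p = 0.053 to 0.14), and so did a replicate block (1.03, adjusted p = 0.053).

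**Figure D1:**
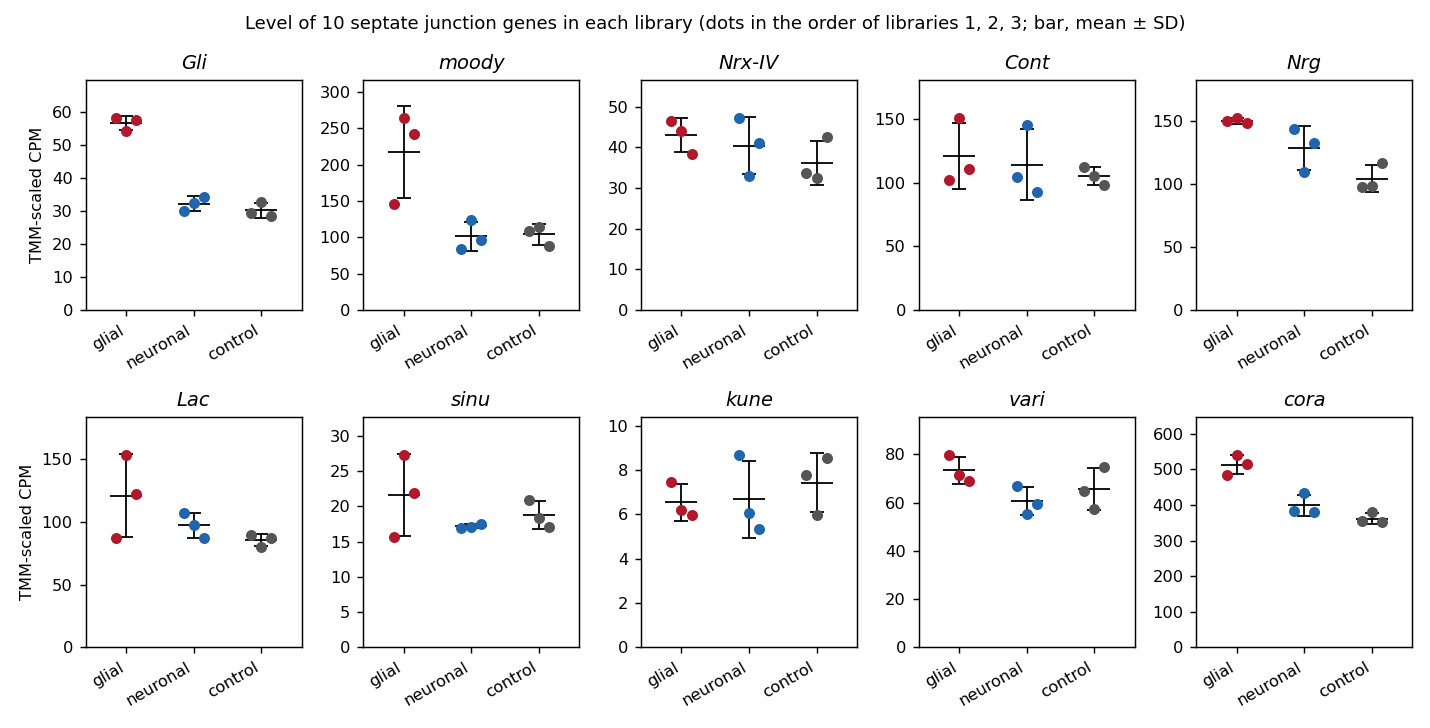
TMM-scaled CPM of the 10 septate junction genes, 1 panel a gene, with a dot for each library of the glial line, the neuronal line and the control (libraries 1, 2 and 3 in that order) and a bar for the mean ± SD of 3 libraries. The glial dots of Gli, moody, Nrg and cora lie above all control dots, and those of the other 6 genes overlap the control.

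The core adhesion genes had smaller values. Nrg encodes neuroglian, the fly member of the L1 family of immunoglobulin adhesion proteins, which neurons also express. Nrg stood at 149.9, 153 and 148 CPM in the glial libraries, at 144, 109 and 132 CPM in the neuronal libraries and at 97.7, 98.7 and 117 CPM in the control libraries. The glial libraries lay above all others, with the neuronal libraries between, overlapping the control. The log2 fold change was 0.52 ± 0.13 in the glial line against the control (adjusted p = 0.059). In the neuronal line against the control it was 0.30 ± 0.13 (adjusted p = 0.37), so neither passed. Nrg passed in the glial line with DESeq2 (0.52, adjusted p = 0.0054) and without neuronal library 2 (0.52, adjusted p = 0.044).

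Nrx-IV, a neurexin, and Cont, a contactin anchored to the membrane by a lipid, did not pass in any comparison. Nrx-IV ran between 38.5 and 46.5 CPM in the glial libraries, between 33.1 and 47.2 CPM in the neuronal libraries and between 32.6 and 42.5 CPM in the control libraries. Its value in the glial line against the control was 0.25 ± 0.16 (adjusted p = 0.44), with a 95% interval of 0.92-fold to 1.53-fold. Cont ran between 102 and 151 CPM in the glial libraries, between 93.0 and 146 CPM in the neuronal libraries and between 98.3 and 112 CPM in the control libraries. The value of Cont in the glial line was 0.20 ± 0.20 (adjusted p = 0.62, interval 0.84-fold to 1.57-fold), and it was -0.01 without glial library 2.

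Lac encodes lachesin, an immunoglobulin protein of the cell surface. Lac stood at 86.9, 153 and 122 CPM in the glial libraries, at 107, 97.2 and 87.2 CPM in the neuronal libraries and at 89.2, 79.7 and 86.7 CPM in the control libraries. Glial libraries 2 and 3 were above every control library and glial library 1 lay within the control range. The log2 fold change in the glial line was 0.50 ± 0.19 (adjusted p = 0.18). Without glial library 1 it was 0.69 (adjusted p = 0.041), the only 1 of 19 settings in which Lac passed.

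The claudin-like genes sinu and kune, whose proteins span the membrane 4 times in the claudin family, gave no call. The gene sinu measured 15.7, 27.2 and 21.8 CPM in the glial libraries, between 16.9 and 17.6 CPM in the neuronal libraries and between 17.1 and 20.9 CPM in the control libraries. Its glial libraries thus spanned more than the other 6 libraries together, and the log2 fold change against the control was 0.20 ± 0.19 (adjusted p = 0.61). The least abundant member, kune, had between 184 and 490 counts a library and was the only member with a negative value in the glial line (-0.18 ± 0.22, adjusted p = 0.70, interval 0.62-fold to 1.25-fold).

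Of the scaffold genes, cora rose. It encodes coracle, the fly protein 4.1, which binds the tail of Nrx-IV. The gene cora stood at 486, 539 and 514 CPM in the glial libraries, at 383, 434 and 382 CPM in the neuronal libraries and at 355, 380 and 351 CPM in the control libraries. All glial libraries exceeded all others, and each neuronal library also exceeded each control library, though the lowest neuronal and the highest control library were close. The rise in the glial line was 1.42-fold (0.50 ± 0.12, adjusted p = 0.049), just inside the threshold. It was lost in 16 of 19 settings (adjusted p = 0.056 to 0.998), passing with DESeq2, limma-voom and the most abundant transcript. The log2 fold change of cora stayed between 0.40 and 0.76. Between the glial and the neuronal line cora gave 0.36 ± 0.12 (adjusted p = 0.14).

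The other scaffold gene, vari, encodes a membrane-associated guanylate kinase of the same complex. It ran between 68.9 and 79.5 CPM in the glial libraries, between 55.4 and 67.0 CPM in the neuronal libraries and between 57.3 and 74.8 CPM in the control libraries (glial line against control 0.16 ± 0.13, adjusted p = 0.55). Of its exon bases 15.2% overlap Pomp on the opposite strand in the Ensembl annotation. Whether reads there were told apart by strand is not known. Pomp gave 0.29 ± 0.14 in the same comparison (adjusted p = 0.31). The other 9 members share no exon base with another annotated gene.

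**Figure D2:**
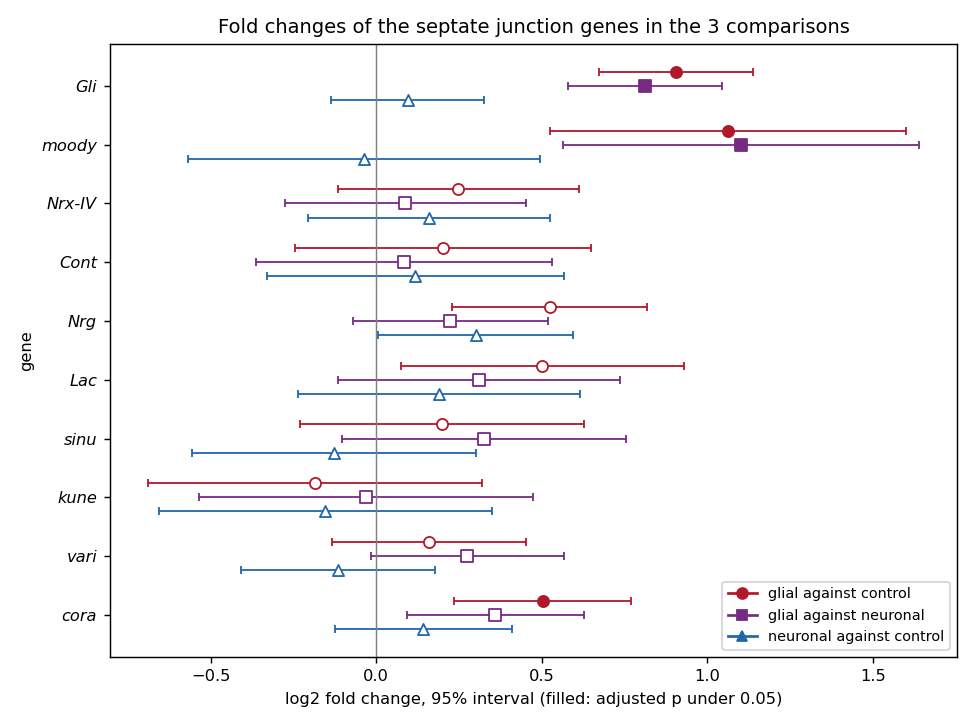
Log2 fold changes of the 10 genes with 95% intervals in the glial line against the control (circles), the glial against the neuronal line (squares) and the neuronal line against the control (triangles), filled where the adjusted p was under 0.05. Gli and moody stand at 0.81 to 1.10 in both comparisons that hold the glial line, and all 10 neuronal values lie between -0.15 and 0.30.

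Over the 10 members, 3 rose and 0 fell in the glial line against the control. Of the 11430 genes tested, 4.42% changed there, 2.54% upward and 1.88% downward. The median log2 fold change of the members was 0.37 and 9 of 10 values were positive, beside a median of 0.01 over all genes. For 4 members all 3 glial libraries lay above all 3 control libraries, as they did for 12.0% of all genes. At an unadjusted p under 0.05, 5 members were higher and 0 lower, where 2280 of the 11430 genes lay under it in either direction. DESeq2 called 4 members higher and limma-voom 3, where over all genes they called 630 and 243 higher. In the glial against the neuronal line, 2 members were called higher and 0 lower, where 3.69% of all genes were called, 2.02% higher and 1.67% lower. Of the members, 5 were higher in every glial library, against 11.1% of all genes, with a median of 0.29. Neuronal against control, 0 of 10 passed with edgeR, 0 with DESeq2 and 0 with limma-voom. By edgeR 1 member, Nrg, had an unadjusted p under 0.05, as did 1518 of the 11430 genes. Of all genes 0.709% were called there, 0.306% higher and 0.402% lower. For 10.7% of genes all neuronal libraries lay above all control libraries, as they did for 1 member, cora. The neuronal median of the members was 0.11. The first and the last of these comparisons share the control libraries, and the first and the second share the glial libraries. Moving from TMM to library totals moved the median of all genes by -0.10 in the glial line against the control and by -0.16 in the glial against the neuronal line. With those totals the members called were Gli and moody against the control and moody alone against the neuronal line, where Gli gave 0.66 (adjusted p = 0.059). Of the genes called in the glial line against the control, 290 of 505 were higher with TMM and 126 of 281 with library totals. Against the neuronal line, 231 of 422 were higher with TMM and 95 of 243 with library totals. Neuronal against control, 35 of 81 were higher with TMM and 27 of 44 with library totals.

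**Figure D3:**
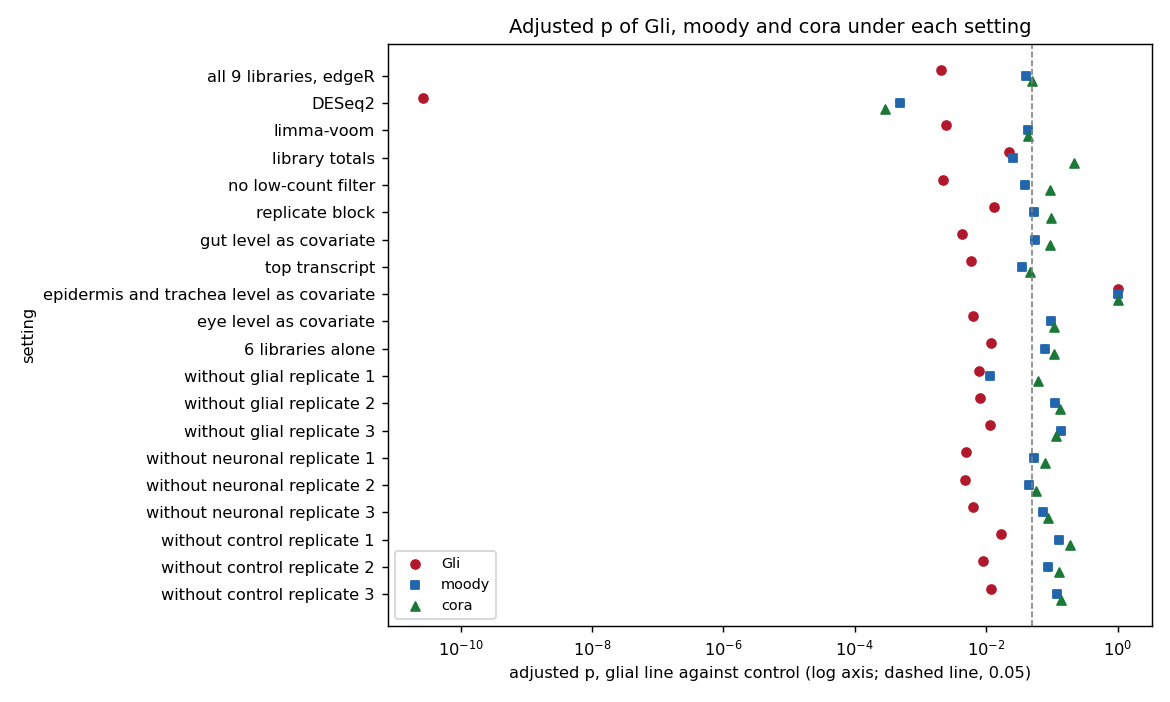
Adjusted p of Gli (circles), moody (squares) and cora (triangles) in the glial line against the control under edgeR with all 9 libraries and under 19 alternative settings, on a log axis with 0.05 dashed. Gli lies left of the line in all settings except the fit with the epidermis and trachea level, while moody and cora straddle it.

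The transcripts of each gene moved with its sum. All 5 Gli transcripts held nearly equal counts and were higher in every glial library than in every control library, by 1.79-fold to 1.98-fold in the ratio of means. All 6 moody transcripts were likewise higher in every glial library, by 1.88-fold to 2.23-fold. Of these, 2 had means of 44.8 and 48.4 CPM in the glial line and 23.8 CPM each in the control, while the other 4 had means of 29.9 to 32.9 CPM in the glial line and 13.8 to 14.8 CPM in the control. All 6 cora transcripts were higher in every glial library, by 1.32-fold to 1.44-fold, although their mean level differed widely, between 26.9 and 142 CPM in the glial line and between 20.1 and 98.5 CPM in the control. Of the cora transcripts in the neuronal line, 5 had 1.11 to 1.15 times the control mean and the other had 0.93 times, at 33.9 CPM in the neuronal line and 36.5 CPM in the control. All 9 Nrg transcripts were higher in every glial library, by 1.36-fold to 1.56-fold, and both Nrx-IV transcripts overlapped the control. How reads were divided among transcripts of 1 gene is not known, so these are not treated as independent values.

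Levels were also compared per kilobase of annotated exon. In the glial line cora was the most abundant member at 84.9 ± 4.45 CPM per kb, followed by Lac (55.9 ± 15.3) and moody (55.2 ± 16.0). In the control, cora stood at 59.9 ± 2.62 CPM per kb, Lac at 39.5 ± 2.28 and moody at 26.4 ± 3.57. The ranges of Lac and moody overlapped in the glial line, where those of the control did not. vari and Cont came next in both genotypes, at 25.6 and 25.5 CPM per kb in the glial line and at 22.9 and 22.2 in the control, with overlapping ranges. Gli ranked 7 of 10 in the glial line (12.6 ± 0.46 CPM per kb) and was the lowest in the control (6.75 ± 0.52), where it overlapped kune. The lowest 4 members of the control, sinu, Nrx-IV, kune and Gli, overlapped their neighbours in that order throughout. In the neuronal line the order was again led by cora, Lac and moody, with kune lowest at 6.30 ± 1.64 CPM per kb.

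The members did not vary alike within the glial line. moody, Lac, sinu and Cont were lowest in glial library 1 and highest in glial library 2. For sinu glial library 1 lay below every other library of the series and glial library 2 above every other. Gli, Nrg and cora were nearly level over the 3 glial libraries, with SDs of 2.04, 2.15 and 26.9 CPM on means of 56.5, 150.3 and 513 CPM. Nrx-IV, kune and vari were highest in glial library 1. That library also held the most counts of the 9 (60322417, with 41080491 in the next, neuronal library 1). Gut markers summed to 42850, 2627 and 58808 CPM in glial libraries 1, 2 and 3. The part of depth or of gut in these patterns was not tested. Among genes with a mean of at least 10 CPM, the 5 whose log2 CPM over the 9 libraries was most like that of moody included nes, retinin, Cpn and CG13067, with Pearson correlations of 0.96 to 0.98. All 9 libraries share their genotype structure in this measure, which is given as a description. retinin encodes a protein of the corneal lens and Cpn encodes calphotin, a calcium-binding protein of photoreceptors. Cpn stood at 652, 1333 and 1156 CPM in the glial libraries, at 393, 534 and 583 CPM in the neuronal libraries and at 582, 484 and 462 CPM in the control libraries (glial line against control 1.04 ± 0.27, adjusted p = 0.066). retinin stood at 4014, 5697 and 4994 CPM in the glial libraries, between 3350.3 and 4043 CPM in the neuronal libraries and between 3146 and 3529.6 CPM in the control libraries (0.54 ± 0.20, adjusted p = 0.17). Both thus shared the low glial library 1 with moody. The 12 eye markers summed to 49461 CPM, 70017 CPM and 53360.4 CPM in glial libraries 1, 2 and 3, to between 48346 and 54223 CPM in the neuronal libraries and to between 53024 and 60922 CPM in the control libraries. None of the 12 passed with edgeR in the glial line (DESeq2 1, limma-voom 0, and 1 at an unadjusted p under 0.05). With the mean level of the eye markers as a covariate Gli gave 0.94 (adjusted p = 0.0062). In that fit the moody call was lost (adjusted p = 0.097) and its log2 fold change moved by -0.063. Cpn and retinin are not among the 12 markers, and the part of the eye in the moody value was not tested.

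The 5 genes most like Gli were CG15784, Prosbeta4, TM9SF3, CG3902 and Tsf1, with Pearson correlations of 0.97 to 0.98 over the 9 libraries. CG15784 averaged 485 CPM in the glial line, 48.3 CPM in the neuronal line and 45.1 CPM in the control. Prosbeta4, a proteasome core subunit, averaged 76.1 CPM in the glial line, 39.4 CPM in the neuronal line and 39.5 CPM in the control. TM9SF3 averaged only 50.4 CPM in the glial line, 43.0 CPM in the neuronal line and 41.8 CPM in the control, so the likeness is of shape and not of size.

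**Figure D4:**
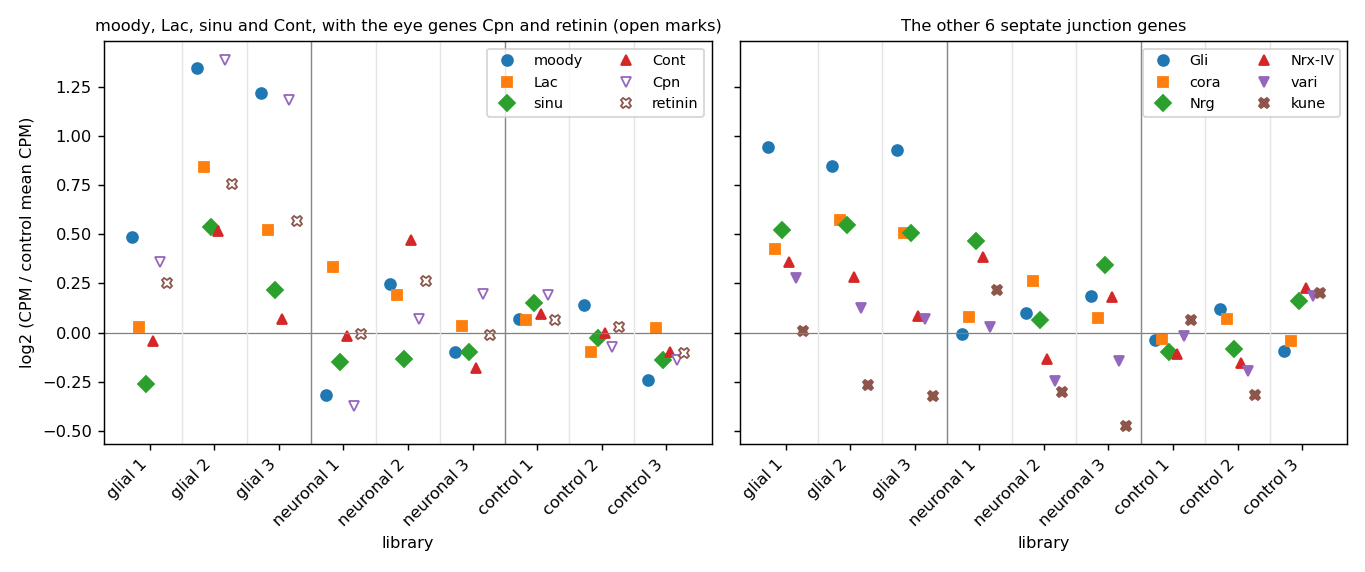
Log2 ratio of CPM to the control mean in each of the 9 libraries, for moody, Lac, sinu and Cont with the eye genes Cpn and retinin as open marks (left) and for the other 6 septate junction genes (right). In the left panel glial library 1 lies below glial libraries 2 and 3 for every gene, where Cpn and retinin were selected for likeness to moody. In the right panel Gli, Nrg and cora are nearly level over the 3 glial libraries.

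Genes outside the 10 that build the same junction mostly did not pass. Of 20 other septate junction genes, 2 rose, 1 fell and 17 did not pass in the glial line, with a median of 0.13. bark, also called anakonda, a large protein of the tricellular junction, rose to 35.7 ± 8.22 CPM in the glial line, against 22.05 ± 0.828 in the neuronal line and 16.1 ± 3.77 in the control (glial line against control 1.15 ± 0.20, adjusted p = 0.015, lost in 5 of 19 settings). Gli and bark, both of the tricellular contact, thus rose, and M6, another gene of that contact, gave 0.16 (adjusted p = 0.76). Fas3, an immunoglobulin adhesion protein, rose to 98.2 ± 12.0 CPM in the glial line, against 65.6 ± 4.41 in the neuronal line and 56.0 ± 4.25 in the control (0.81 ± 0.12, adjusted p = 0.0076, lost in 2 of 19 settings). It also exceeded the neuronal line (0.58 ± 0.12, adjusted p = 0.035), a call lost in 13 of 19 settings. nrv2, a beta subunit of the sodium-potassium pump with a role in the junction, fell to 352 ± 43.1 CPM in the glial line, against 596 ± 52.5 in the neuronal line and 615 ± 9.27 in the control (-0.81 ± 0.14, adjusted p = 0.014, lost in 3 of 19 settings). The pump's alpha subunit gene Atpalpha gave -0.19 (adjusted p = 0.54), and pck, the claudin-like partner of sinu and kune, gave 0.20 (adjusted p = 0.60). Neuronal against control, 0 of the 20 passed with edgeR, DESeq2 or limma-voom, and 0 had an unadjusted p under 0.05.

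A list of signalling genes around Moody, holding G protein subunits, loco and subunits of protein kinase A, gave no edgeR call against the control. Of 9 tested, 0 passed in the glial line against the control with edgeR and 0 with limma-voom, DESeq2 called 2 lower, and 2 were higher and 3 lower at an unadjusted p under 0.05 (median -0.23). loco, the RGS protein that damps the signal and is needed for the barrier, gave 0.29 (adjusted p = 0.19), and the alpha subunit gene Galphai gave 0.45 (adjusted p = 0.20). Galphao, the other alpha subunit of this pathway, was lower in the glial line (121 ± 5.55 CPM) than in the neuronal line (177 ± 5.64 CPM), with 152 ± 4.19 CPM in the control (glial against neuronal -0.55 ± 0.10, adjusted p = 0.017, lost in 9 of 19 settings).

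Transporters and other markers of the barrier glia that passed with edgeR fell. Of 17 tested, 0 rose, 4 fell and 13 did not pass in the glial line. The organic anion transporter gene Oatp58Dc fell to 16.6 ± 2.34 CPM in the glial line, against 35.7 ± 2.43 in the neuronal line and 33.7 ± 3.60 in the control (-1.02 ± 0.14, adjusted p = 0.0048). The amino acid transporter gene mnd fell to 8.96 ± 1.01 CPM in the glial line, against 20.9 ± 2.67 in the neuronal line and 22.3 ± 3.59 in the control (-1.31 ± 0.17, adjusted p = 0.0032). Sod3, an extracellular superoxide dismutase, fell by 1.60 ± 0.13 (adjusted p = 0.00041), and MFS3 by 0.89 ± 0.21 (adjusted p = 0.047, lost in 13 of 19 settings). The efflux pump gene Mdr65, specific to subperineurial glia, gave 0.37 (adjusted p = 0.23) and the trehalose transporter gene Tret1-1 of perineurial glia gave 0.10 (adjusted p = 0.83). The median of the 17 was 0.13, since 12 had positive values. Sod3 was the only 1 of the 17 that passed in the neuronal line, at -0.75 ± 0.13 (adjusted p = 0.044, lost in 16 of 19 settings).

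Some matrix genes were also called. Of 11 genes of the basement membrane around the perineurial glia and of its proteases, 4 rose, 0 fell and 7 did not pass in the glial line (median 0.35). The laminin genes LanA (101 ± 8.16 CPM in the glial line, 67.7 ± 6.17 in the neuronal line and 56.0 ± 3.84 in the control, 0.85 ± 0.11, adjusted p = 0.0047) and LanB1 (0.74 ± 0.14, adjusted p = 0.020) rose, as did the matrix metalloproteinase gene Mmp1 (1.18 ± 0.18, adjusted p = 0.0068) and papilin, Ppn (0.72 ± 0.15, adjusted p = 0.031). The LanB1 call was lost in 7 of 19 settings and the Ppn call in 11, and 2 to 4 of the 11 genes were called when 1 library was left out. Library totals left 1, Mmp1. The collagen genes vkg and Col4a1 gave -0.08 (adjusted p = 0.88) and 0.04 (adjusted p = 0.96). Against the neuronal line LanB2 (0.89 ± 0.12, adjusted p = 0.0049) and Ppn (0.84 ± 0.15, adjusted p = 0.019, lost in 9 of 19 settings) were among 4 that were higher in the glial line, a count of 1 to 4 when 1 library was left out. Laminins, collagens and papilin are made by hemocytes and fat body as well.

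Of 17 genes tested from a list of markers of other glial classes, 1 rose, 4 fell and 12 did not pass in the glial line (median -0.40). zyd, an ion exchanger of cortex glia, fell to 19.9 ± 3.32 CPM in the glial line, against 51.4 ± 5.43 in the neuronal line and 49.5 ± 4.97 in the control (-1.32 ± 0.15, adjusted p = 0.0023). The astrocyte gene alrm fell by 1.68 ± 0.25 (adjusted p = 0.0067) and wrapper, of cortex and wrapping glia, fell by 0.73 ± 0.14 (adjusted p = 0.023, lost in 5 of 19 settings). The 1 that rose, the lipocalin gene NLaz (Neural Lazarillo), is not specific to glia. NLaz rose in the glial line (1.004 ± 0.18, adjusted p = 0.019) and in the neuronal line (1.03 ± 0.18, adjusted p = 0.049). These calls were lost in 6 and in 15 of 19 settings. repo, the transcription factor of nearly all glia, stood at 37.6 ± 7.20 CPM in the glial line, 48.3 ± 13.6 in the neuronal line and 50.4 ± 3.90 in the control (glial line against control -0.42 ± 0.21, adjusted p = 0.30). The lists were not tested against each other.

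**Figure D5:**
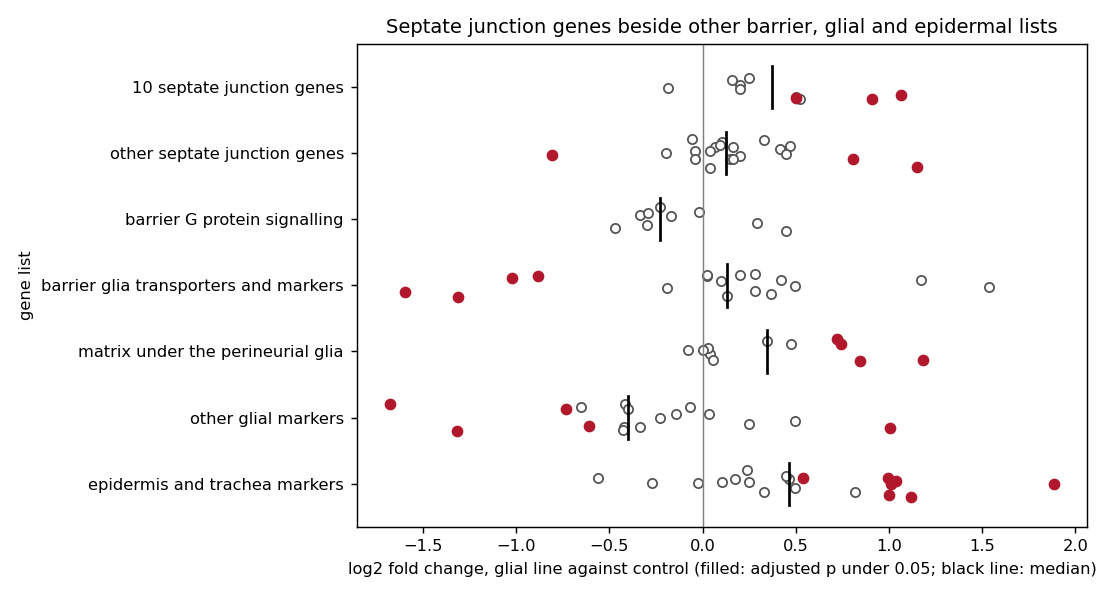
Log2 fold changes in the glial line against the control, 1 dot a gene, for the 10 septate junction genes and 6 further lists, with called genes filled and a black line at the median of each list. The medians are 0.37 for the 10 genes, 0.13 for other septate junction genes, -0.40 for other glial markers and 0.46 for epidermis and trachea markers.

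Markers of epidermis and trachea, tissues that also build septate junctions, were counted in the same way. Of 19 tested, 7 rose, 0 fell and 12 did not pass in the glial line, and 3 values were negative (median 0.46). Leaving out any 1 of the control libraries brought the count to 0, and leaving out 1 other library gave 3 to 7. Those that rose included the chitin deacetylase genes verm (225 ± 64.9 CPM in the glial line, 146 ± 13.7 in the neuronal line and 103 ± 7.26 in the control, 1.12 ± 0.19, adjusted p = 0.015) and serp (0.997 ± 0.20, adjusted p = 0.028), the chitin synthase gene kkv (1.01 ± 0.19, adjusted p = 0.022) and the chitinase gene Cht7 (0.999 ± 0.18, adjusted p = 0.017). Of 19 settings, 6 ended the call of verm, 5 that of Cht7, 7 that of kkv and 9 that of serp. Among the 19 genes dpy alone rose in the neuronal line (1.22 ± 0.20, adjusted p = 0.041, lost in 11 of 19 settings). The 19 genes summed to between 2363 and 2480.1 CPM in the glial libraries, to between 2410.5 and 2480.0 CPM in the neuronal libraries and to between 1473 and 1631 CPM in the control libraries, and none of the 19 was at 0. A large share of these sums was dpy, at 823 ± 185 CPM in the glial line, 1087 ± 51.6 in the neuronal line and 467 ± 84.7 in the control. Their mean log2 CPM was 5.65, 5.55 and 5.78 in the glial libraries, 5.52, 5.38 and 5.43 in the neuronal libraries and 5.25, 5.10 and 5.15 in the control libraries. Since this level separates the genotypes without overlap, it and the genotype cannot be told apart in these 9 libraries. With it as a covariate 0 of 11430 genes passed in the glial line with edgeR (496 at an unadjusted p under 0.05; no other tool was run with this covariate), where Gli gave 1.01, moody 1.54 and cora 0.76.

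Genes of the smooth septate junction, the form found in midgut, varied between libraries of 1 genotype, as the gut markers did. mesh averaged 244 ± 114 CPM in the glial line, 159 ± 95.9 in the neuronal line and 98.2 ± 143 in the control, and Tsp2A averaged 45.3 ± 31.3 CPM in the glial line, 26.3 ± 9.98 in the neuronal line and 14.7 ± 17.4 in the control. The 4 genes of this list summed to 434, 141 and 365 CPM in the glial libraries, to 91.0, 303 and 265 CPM in the neuronal libraries and to 29.5, 327 and 21.3 CPM in the control libraries. In each genotype the library with the lowest gut marker sum also held the lowest value here. With edgeR on all 9 libraries, 0 of 4 passed in any comparison, DESeq2 and limma-voom called 0, and 0 had an unadjusted p under 0.05. Without control library 2, mesh (3.92, adjusted p = 0.031) and Tsp2A (3.24, adjusted p = 0.037) passed in the glial line. The 2 gut enzyme genes with the highest mean, betaTry and Jon99Cii, did not pass in the glial line either, at 0.56 ± 1.28 and 0.70 ± 1.23 (adjusted p = 0.85 and 0.80). A fit that held the gut level as a term gave Gli 0.85 (adjusted p = 0.0042), moody 1.07 (adjusted p = 0.055) and cora 0.50 (adjusted p = 0.092).

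Further markers describe the tissue around the barrier. Of 11 fat body markers 2 rose and 0 fell in the glial line (median 0.36), the iron carrier gene Tsf1 (833 ± 161 CPM in the glial line, 301 ± 79.3 in the neuronal line and 260 ± 63.7 in the control, 1.68 ± 0.27, adjusted p = 0.00999) and the storage protein gene Lsp2 (4.68 ± 1.05, adjusted p = 0.040, lost in 9 of 19 settings). The 11 summed to between 51183 and 177953 CPM in the glial libraries, to between 65582 and 87379.6 CPM in the neuronal libraries and to between 96707 and 160479.9 CPM in the control libraries. Of 15 neuronal markers 0 rose and 1 fell in the glial line (median -0.13), the syntaxin gene Syx1A (-0.47 ± 0.11, adjusted p = 0.044, lost in 15 of 19 settings). Against the neuronal line 5 of the 15 were lower in the glial line, among them Syx1A (-0.63 ± 0.11, adjusted p = 0.016, lost in 7 of 19 settings) and the RNA-binding protein gene fne (-0.71 ± 0.13, adjusted p = 0.020, lost in 8). Leaving out any 1 neuronal library brought that count to 0. Neuronal against control, 0 of the 15 passed with edgeR and 0 with limma-voom, and DESeq2 called 3 higher. There 13 of the 15 values were positive, with a median of 0.29. All neuronal libraries lay above all control libraries for 10 of the 15, against 10.7% of all genes. elav itself stood at 65.4 ± 5.88 CPM in the glial line, 82.5 ± 3.38 in the neuronal line and 59.1 ± 3.46 in the control. ninaE and Arr2, the 2 most abundant eye markers, had values of -0.02 ± 0.27 and 0.20 ± 0.20 in the glial line (adjusted p = 0.98 and 0.63). The part of these tissues in the values of the septate junction genes was not tested.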

How the data were processed

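The authors deposited unscaled whole-number counts for 31838 RefSeq transcripts in 9 libraries. STAR and DESeq2 are named in the submitters' processing notes without a role or version; the counting program, the build and whether strand was used are not given in the labels or headers. A gene was found for 31673 transcripts in the RefSeq table of assembly Release 6 plus ISO1 MT and these were summed to 15248 genes; the other 165 (0.30% to 0.68% of counts) were kept as entries of their own. Exon lengths and overlaps come from Ensembl release 115. The 15413 entries were filtered with filterByExpr (minimum count 10, minimum total 15), leaving 11430, scaled with TMM, and tested with edgeR 4.0.16 in R 4.3.3 by the quasi-likelihood test with genotype as the only term on all 9 libraries. The standard error is the size of the log2 fold change divided by the square root of F. DESeq2 1.42.0, limma-voom (limma 3.58.1) and 17 other settings were alternatives. The fit was tested on simulated data first.

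Members and lists were chosen with earlier results of these data known. Named genes are the 10 members, Ube3a, repo and elav; from each list up to 4 with the smallest p among those that passed in the glial line and up to 2 in each other comparison, or else the 2 with the highest CPM; and the 5 genes most like Gli and most like moody. Genes named beyond this rule (M6, Atpalpha, pck, loco, Galphai, Mdr65, Tret1-1, vkg, Col4a1 and Pomp) were chosen for their role or position, with their values known. CG9657 and zetaTry were not found under those names, and Pka-C2 and Oatp58Db did not pass the filter. Every member had at least 184 counts in every library; counting error and spread between libraries were not separated.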

Additional observations from a re-analysis of the deposited data

Results flagged for a closer look

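In the genes below the glial and the neuronal line differed from each other. The lines differ in driver as well as in Dube3a level, which cannot be told apart here. Each value is the log2 fold change of the glial over the neuronal line, past an adjusted p of 0.05 in edgeR's quasi-likelihood test. Among the septate junction genes these were Gli (0.81, lost in 2 of 19 settings) and moody (1.10, lost in 10), beside the transgene's own gene Ube3a (1.57). Of other junction and barrier genes Fas3 was higher in the glial line (0.58), and nrv2 (-0.76), Galphao (-0.55), Sod3 (-0.85), mnd (-1.22) and Oatp58Dc (-1.10) were lower. The matrix genes LanA (0.57), Mmp1 (0.93), Ppn (0.84) and LanB2 (0.89) were higher. The glial markers zyd (-1.37), alrm (-1.44) and wrapper (-0.81) and the neuronal markers Syx1A (-0.63) and fne (-0.71) were lower. The fat body markers Tsf1 (1.47) and Lsp2 (4.96) were higher. Over the 19 settings the call was lost in 13 for Fas3, in 9 each for Galphao, Ppn and Lsp2, in 8 each for nrv2 and fne, in 7 for Syx1A and in 5 for Tsf1. It was lost in 3 for alrm and in 1 each for Ube3a, mnd, Oatp58Dc, zyd and LanB2. For Sod3, LanA, Mmp1 and wrapper the settings were not counted in this comparison.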

How the results depend on the processing

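Of the septate junction genes, Gli kept its call in the glial line against the control in 18 of 19 settings, moody in 7 and cora in 3. The members called there were 1 with a replicate block, the gut level, the eye level or the 6 libraries of the comparison alone, 0 with the epidermis and trachea level, and between 1 and 3 when 1 library was left out. Against the neuronal line they were 1 with library totals, the eye level or the 6 libraries alone, 0 with the epidermis and trachea level, and between 1 and 2 when 1 library was left out. The covariates of epidermis and trachea and of eye were chosen after seeing the data, and the cause of the lost calls was not tested. There are 3 libraries a genotype, and depth was not separated from the spread between libraries.

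Genes called in the glial line against the control were 505, and 1110 with DESeq2, 281 with library totals, 281 with the replicate block, 274 with 6 libraries alone, 0 with the epidermis and trachea level and between 181 and 447 with 1 library left out. Neuronal against control they were 81, and 470 with DESeq2, 44 with library totals, 15 with the replicate block, 2 with the epidermis and trachea level, 48 with the eye level and between 16 and 62 with 1 library left out. Glial against neuronal they were 422, and 1013 with DESeq2, 243 with library totals, 241 with the replicate block, 227 with 6 libraries alone, 16 with the epidermis and trachea level, 185 with the eye level and between 154 and 392 with 1 library left out. Deviations from the genotype means correlated at -0.57 to 0.37 between libraries with the same number (9 pairs, 2 of them over 0.1). Pairs of different genotype and number spanned a like range, -0.61 to 0.39. These values cannot decide whether libraries that share a number belong together, and the labels do not say.

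Signs turned only among values that had not passed, except kkv (-0.13), serp (-0.15) and Lsp2 (-0.32) in the glial line against the control with the epidermis and trachea level. In the same fit vari gave -0.051, repo 0.26 and ninaE 0.49, and neuronal against control moody gave 0.22, repo 0.31, ninaE 0.12 and Arr2 0.12. Glial against neuronal it gave 0.62 for betaTry and 0.75 for Jon99Cii. With library totals moody (0.012) and Arr2 (0.026) turned neuronal against control, and Nrx-IV (-0.072), Cont (-0.067) and ninaE (-0.020) glial against neuronal. The eye level turned Nrx-IV (-0.026), Cont (-0.070), ninaE (-0.13), betaTry (1.51) and Jon99Cii (1.64) glial against neuronal, and Arr2 (0.074) neuronal against control. The gut level turned betaTry (-1.06), Jon99Cii (-1.04) and ninaE (0.070) in the glial line, and betaTry (-0.59), Jon99Cii (-0.54) and Arr2 (0.079) in the neuronal line. The replicate block turned betaTry (0.58) and Jon99Cii (0.63) glial against neuronal.

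Leaving out 1 library turned the sign of further values that had not passed. In the glial line against the control these ran between -0.0075 and 0.31 for Cont, -0.027 and 0.39 for sinu, -0.089 and 2.40 for betaTry, and -0.23 and 0.11 for ninaE. Neuronal against control they ran between -0.21 and 0.084 for moody, -0.094 and 0.25 for Cont, -0.32 and 0.057 for repo, -0.041 and 2.30 for Jon99Cii, and -0.095 and 0.087 for Arr2. Glial against neuronal they ran between -0.038 and 0.22 for Nrx-IV, -0.12 and 0.30 for Cont, -0.17 and 0.20 for kune, -0.70 and 0.51 for betaTry, -0.49 and 0.74 for Jon99Cii, and -0.065 and 0.27 for ninaE.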
